A study of Mus musculus with 6 samples.

Results

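The genes described here are 10 zinc-dependent histone deacetylase genes of the mouse, Hdac1, Hdac2, Hdac3, Hdac4, Hdac5, Hdac6, Hdac7, Hdac8, Hdac9 and Hdac11, and the open chromatin over them in the kidney. They were taken by name, as 10 of 21738 protein-coding genes in the annotation. For each gene, every accessible interval that overlapped the stretch from 3 kb upstream of its start to its end was collected, which gave 192 of the 279569 intervals of the series. The nuclei came from the kidney cortex of 3 WT and 3 Acly cKO mice and were profiled by ATAC-seq, in which a transposase cuts and tags accessible DNA. The Acly cKO mice carried floxed alleles of Acly (Acly fl/fl), the gene of the enzyme that makes acetyl-CoA from citrate, and Ksp-Cre, which is driven by the Cdh16 promoter and is active in tubule and collecting duct epithelium. By the study's methods, the WT controls were Acly fl/fl littermates without Cre, so both groups share the floxed alleles, and cells outside the tubule keep Acly in both. All 6 libraries carry the treatment label Control, and the study's methods give an age for the mice of its injury experiments but do not tie it to the ATAC-seq mice.

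The authors deposited a single peak call over pooled libraries, with no column for any one library. WT and Acly cKO kidneys were therefore not compared, no value carries a replicate error, no test was made, and the depth of each library is unknown. By the labels, batches 1 and 2 hold only WT libraries and batches 4 and 5 only Acly cKO libraries, which means that genotype and batch cannot be told apart either. The study's text counts more WT libraries than are labelled here, and says that some came from earlier datasets of the same laboratory. Whether the mice of those datasets carried the floxed alleles is not stated, and the peak list does not name the libraries in the pool. Each interval is described by the fold enrichment over background at its highest summit, a linear ratio given by the authors' peak caller. In a whole tissue, a larger share of cells with an open site and a wider opening in each cell cannot be told apart. Markers of the proximal tubule, the thick limb and distal tubule, and the collecting duct had an interval at the canonical start in 11 of 11 genes. Of all coding genes 75.8% had one, so this count does not by itself bear out the tissue label. The tubule markers ran from 4.19-fold at Aqp2 to 33.1-fold at Lrp2. Only 1 gene in each of these 3 lists reached 20-fold, against 49.3% of all coding genes. Any interval that reached within 1 kb of a start was counted there. At Atp6v1b1 (22.7-fold), the gene of the collecting duct list over 20-fold, and at Slc34a1 (16.2-fold) the summit lay over 1 kb from every start of the gene. The median of each list was below the 19.4-fold of all coding genes. All 3 podocyte and all 3 endothelium markers also had an interval at the canonical start, from 2.03-fold at Pecam1 to 17.4-fold at Podxl. Of the 2 immune markers only Ptprc had an interval there, at 1.90-fold, and Cd3e had none. Among 6 markers of other organs 4 had an interval, the highest at 3.40-fold at Ins2, so values of this size also occur at genes that the kidney is not known for.

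Histone deacetylases remove acetyl groups from lysines of histones and other proteins, and the enzymes of these genes do so with a zinc ion in the active site. Class I enzymes (HDAC1, HDAC2, HDAC3 and HDAC8) are mainly nuclear. HDAC1 and HDAC2 work inside the Sin3, NuRD and CoREST complexes, and HDAC3 inside the complex of the corepressor NCoR. Class IIa enzymes (HDAC4, HDAC5, HDAC7 and HDAC9) have little deacetylase activity of their own, bind MEF2 transcription factors, and leave the nucleus when kinases phosphorylate them and 14-3-3 proteins bind. HDAC6, of class IIb, is a cytoplasmic deacetylase of tubulin, and HDAC11 is the sole class IV enzyme. Acetyl-CoA, which ACLY produces, is the donor of the acetyl groups that these enzymes remove.

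The starts of these genes differed in sequence as well as in accessibility, and the 150 bases of GRCm39 upstream of 6 of them show the range. Hdac2 and Hdac4 had the strongest start intervals, at 67.2-fold and 74.0-fold. Hdac5 lay near the middle of all coding genes, those without an interval included, at 22.2-fold. Hdac8 had the weakest start of class I, at 15.6-fold, and Hdac9 the lowest best start of any member, with 8.51-fold at an upstream start and 7.27-fold at the canonical start (the start of the transcript that GENCODE marks as representative). Each sequence reads 5′ to 3′ on the strand of the gene and ends at the base before the outermost start of its group. Capitals mark motif matches on either strand, with no mismatch. The GC box is written GGGCGG, bound by Sp1 and its relatives, the E-box is written CACGTG, and the CCAAT box has the letters of its name.
Hdac2, chr10:36850285-36850434, plus strand: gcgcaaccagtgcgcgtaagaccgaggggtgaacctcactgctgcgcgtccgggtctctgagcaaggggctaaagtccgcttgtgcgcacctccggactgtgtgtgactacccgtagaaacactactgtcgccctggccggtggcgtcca
Hdac4, canonical start, chr1:92108595-92108744, minus strand: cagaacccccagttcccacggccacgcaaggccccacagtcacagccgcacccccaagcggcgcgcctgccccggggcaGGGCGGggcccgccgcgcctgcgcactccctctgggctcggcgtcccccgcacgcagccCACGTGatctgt
Hdac5, chr11:102121073-102121222, minus strand: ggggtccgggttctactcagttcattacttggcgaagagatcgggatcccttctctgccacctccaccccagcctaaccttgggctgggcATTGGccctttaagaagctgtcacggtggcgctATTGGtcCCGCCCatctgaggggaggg
Hdac8, chrX:101549027-101549176, minus strand: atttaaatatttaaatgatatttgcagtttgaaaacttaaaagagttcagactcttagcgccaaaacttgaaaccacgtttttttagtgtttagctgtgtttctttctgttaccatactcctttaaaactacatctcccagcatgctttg
Hdac9, upstream start, chr12:34957057-34957206, minus strand: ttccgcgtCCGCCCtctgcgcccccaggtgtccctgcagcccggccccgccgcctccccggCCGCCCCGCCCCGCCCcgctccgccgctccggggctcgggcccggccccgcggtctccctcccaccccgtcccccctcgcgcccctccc
Hdac9, canonical start, chr12:34579375-34579524, minus strand: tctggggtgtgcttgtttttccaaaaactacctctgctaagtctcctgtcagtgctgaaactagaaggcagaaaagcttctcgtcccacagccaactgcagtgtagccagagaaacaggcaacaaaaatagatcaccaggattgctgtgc

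The Hdac8 sequence was 32% G and C and held 2 CpG, and the Hdac2 sequence was 63.3% G and C and held 14 CpG. The Hdac4 sequence, upstream of the group of starts that holds the canonical one, was 76.7% G and C, with 17 CpG. The canonical start itself lies further downstream in that group, and the 501 bp around it were 70.7% G and C. The pair of Hdac9 starts differed most, with 86% G and C, 22 CpG and 4 GC boxes upstream of the first, and 47.3% G and C and 1 CpG upstream of the canonical one. The start rich in CpG had 8.51-fold and the canonical one 7.27-fold.

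Sequence around the highest summits was searched for 16 motifs in windows of 200 bp, and 97 of the 192 windows held at least 1 (50.5%, against 51.6% of all intervals). Most motifs were found at shares close to those of all intervals. The GC box lay in 10.4% of the windows and in 8.15% of all intervals, the CCAAT box in 46 of them and in 22.8% of all intervals, and the AP-1 site (TGANTCA) in 13.5% and 12.4%. The HNF4 site (CAAAGTCCA), of a factor that defines proximal tubule cells, lay in 3 windows (1.56%) and in 0.884% of all intervals. The MEF2 site, the sequence bound by the partners of the class IIa enzymes, lay in 4 of the 192 windows (2.08%) and in 0.366% of all intervals. All 4 windows were at class IIa genes, which held 146 of the windows, and 0 of the 46 windows at other classes held it. With a share of 0.366% over all intervals, 0 of 46 windows is close to that share and does not set the classes apart. The motifs searched had been chosen with the roles of these enzymes in mind, and 4 windows are few. A match is a string of letters in the reference, and binding of MEF2 was not measured. Each match is given in 30 bases with the site in capitals, on the strand of its gene, because MEF2 is the best known partner of this class.
Hdac5, internal start, chr11:102109799-102109828, minus strand: catgctccacCTATTTATAGacagggccct
Hdac5, gene start, chr11:102120999-102121028, minus strand: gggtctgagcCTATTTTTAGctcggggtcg
Hdac7, intron 1, chr15:97710222-97710251, minus strand: tgctggtgagCTATAAATAGctcctgcacc
Hdac9, upstream start, chr12:34957028-34957057, minus strand: ccagcgcgcgCTATTTTTAGcccgtcctcc

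The site at the internal start of Hdac5 was centred 58 bp upstream of the nearest start of the gene. In the interval at the Hdac5 gene start the site was centred 3 bp upstream of the nearest start. That nearest start is another one of the same group, and the site lies downstream of the gene start itself (chr11:102121072). At Hdac9 it lay 14 bp downstream of the nearest start, and at Hdac7 2508 bp downstream, inside intron 1. Those at the internal start of Hdac5 and in Hdac7 also contain a TATA box (TATAAA), on either strand, so the letters count for both motifs. Within 1 kb of any start, 3 of 40 windows held the MEF2 site (7.5%), against 0.304% of all such windows of the series. In the same 40 windows, 0 held the ETS site (CCGGAAG), which 5.28% of all windows near starts held.

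Of the 10 genes, 9 had an interval within 1 kb of the gene start, the outermost start in the annotation, as did 74.3% of all protein-coding genes. A fold enrichment of at least 20 was found there at 6 of the 10, against 47.4% of all protein-coding genes. The median at the gene start was 31.5-fold, against 17.4-fold over all coding genes. The outermost start is a poor mark for 3 class IIa genes, whose canonical start lies 15.4 kb (Hdac4), 12.7 kb (Hdac7) and 388 kb (Hdac9) downstream of it. At the canonical start all 10 genes had an interval, against 75.8% of all coding genes, and 8 had one of at least 20-fold, against 49.3%. The median was then 45.6-fold, against 19.4-fold. With 10 genes these shares are coarse.

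**Figure D1:**
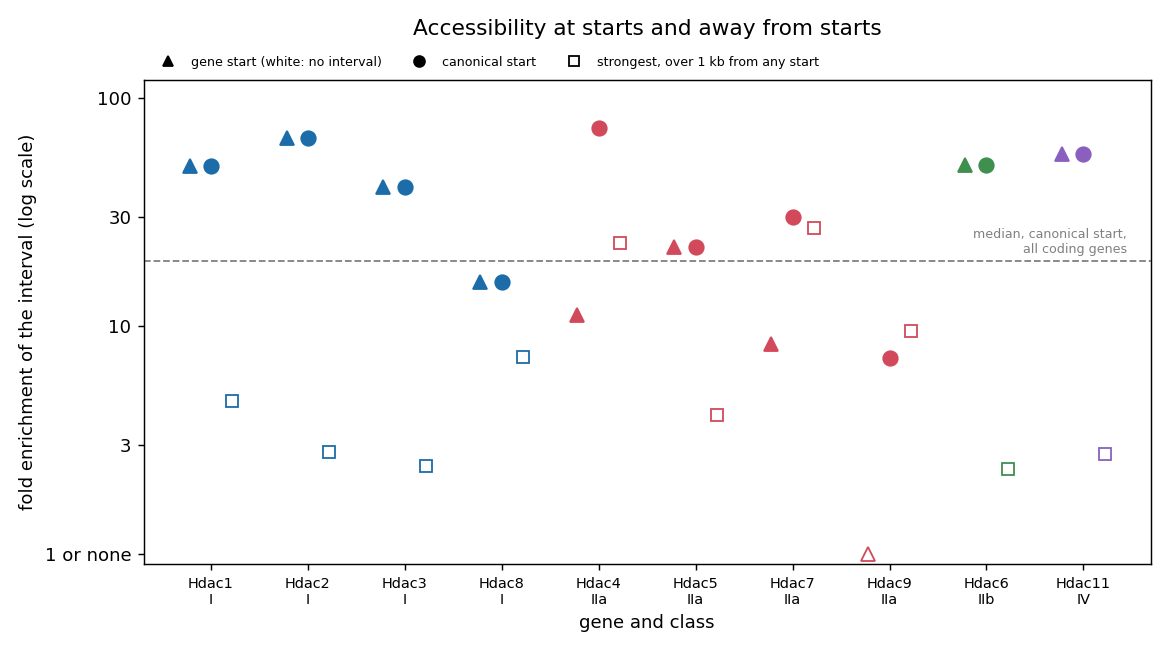
Fold enrichment (log scale) for each gene at its gene start (triangles), at its canonical start (circles) and in its strongest interval over 1 kb from any annotated start of any gene (open squares), with class I in blue, IIa in red, IIb in green and IV in purple; the dashed line is the median of all coding genes at the canonical start, 19.4-fold. At Hdac9 alone the square (9.56-fold) lies above the canonical start (7.27-fold), and at Hdac7 it comes close (26.9-fold and 30.2-fold).

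In order of the canonical start the genes ran Hdac4 (74.0-fold), Hdac2 (67.2-fold), Hdac11 (56.9-fold), Hdac6 (51.1-fold), Hdac1 (50.4-fold), Hdac3 (40.8-fold), Hdac7 (30.2-fold), Hdac5 (22.2-fold), Hdac8 (15.6-fold) and Hdac9 (7.27-fold). Without replicates, neighbours in this order cannot be told apart. Hdac4 stood at percentile 95.8 of the coding genes and Hdac9 at percentile 37.2. The genes of weak starts, Hdac8 and Hdac9, also had the fewest CpG around the canonical start, with 0.324 and 0.181 of the number expected from their base content in 501 bp. The other 8 genes ran from 0.583 at Hdac11 to 1.04 at Hdac4, and the median of all coding genes was 0.601. The X-linked members are Hdac6 and Hdac8. Among all coding genes with an interval at the gene start, those on the X chromosome had a median of 21.5-fold and those on autosomes 29.8-fold, and the sex of the mice is not stated in the sources used here.

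**Figure D2:**
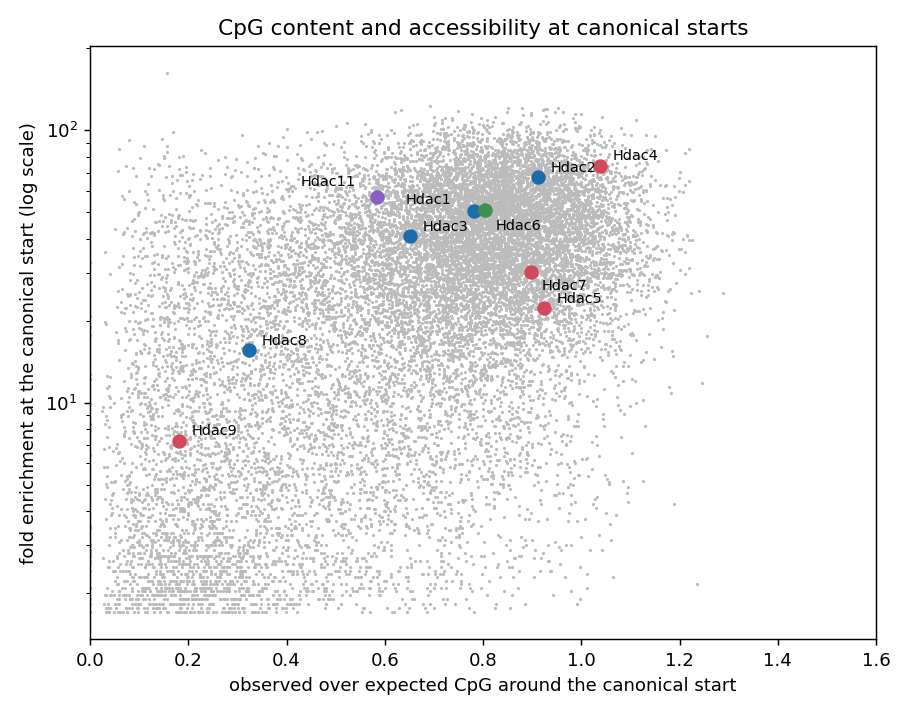
Observed over expected CpG in 501 bp around the canonical start (x axis) against fold enrichment there (y axis, log scale) for coding genes with an interval (grey) and the 10 deacetylase genes (class I blue, IIa red, IIb green, IV purple). Hdac8 and Hdac9 sit at the lower left, at 15.6-fold and 7.27-fold, and the other 8 genes lie to the right of 0.5 and above 20-fold.

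In class I, 28 of 35 intervals had their summit over 1 kb from every start of the gene, and 2 of these were at least 5-fold, 1 at Hdac8 and 1 past the end of Hdac3. Hdac1, whose product is a catalytic subunit of Sin3, NuRD and CoREST, lies on the minus strand of chromosome 4 from 129409895 to 129436631. Its start interval, chr4:129435389-129437378, reached 50.4-fold (-log10 q 1004), with the summit 43 bp downstream of the gene start. At the other end of the gene, an interval over intron 12, chr4:129410144-129411998, reached 9.89-fold, 398 bp from the start of another transcript of the gene. In intron 2 an interval of 5.11-fold lay 112 bp upstream of a further noncoding start. The 5 intervals of Hdac1 away from its starts did not exceed 4.71-fold.

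Hdac2, the close paralog of Hdac1 in the same complexes, spans 36850435 to 36877890 on the plus strand of chromosome 10. The interval chr10:36848888-36852778 held 8 summits and reached 67.2-fold with a -log10 q of 1463, in the noncoding part of exon 1 and 40 bp downstream of the gene start. The other 7 intervals did not exceed 2.82-fold, and 4 of them lay in intron 1. No other member had so large a gap between its start and its second interval. Hdac1 and Hdac2 each had 8 intervals over genes of 26.7 kb and 27.5 kb. Only uniquely mapped reads were kept, so close copies can be under-called, and the pseudogene Hdac1-ps on chromosome 17 had 0 intervals.

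Hdac8 encodes a class I enzyme that acts outside the large corepressor complexes and deacetylates the cohesin subunit SMC3. It is the long gene of its class, on the minus strand of the X chromosome from 101328244 to 101549026 (221 kb). The start interval chrX:101547748-101549561 had 15.6-fold and a -log10 q of 193. Its 12 intervals covered 2.81% of the region, and the density of 5.36 per 100 kb was below the median of 8.15 of the 1012 coding genes of at least 200 kb. Away from the start, the strongest interval lay in intron 10, chrX:101346989-101347779, 202 kb downstream, at 7.33-fold. Intron 10, with 22470 bp, held 4 intervals, as many as intron 9 with 94840 bp.

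Hdac3, the enzyme of the NCoR complex, lies on the minus strand of chromosome 18 from 38068897 to 38088077. Its start interval from 38086157 to 38092646 reached 40.8-fold with a -log10 q of 756, and the summit was 4 bp downstream of the gene start. The protein-coding gene Rell2 starts on the other strand 47 bp upstream of Hdac3, so this interval belongs to both starts. Between its ends Hdac3 had 5 weak intervals, all in introns, from 1.77-fold to 2.42-fold. The strongest interval of its region, at 78.0-fold and from 38064282 to 38070878, overlapped the 3′ end only by its flank. Its summit lay 308 bp past the end of Hdac3, by the start of the next gene, Diaph1, which encodes an actin-nucleating formin.

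**Figure D3:**
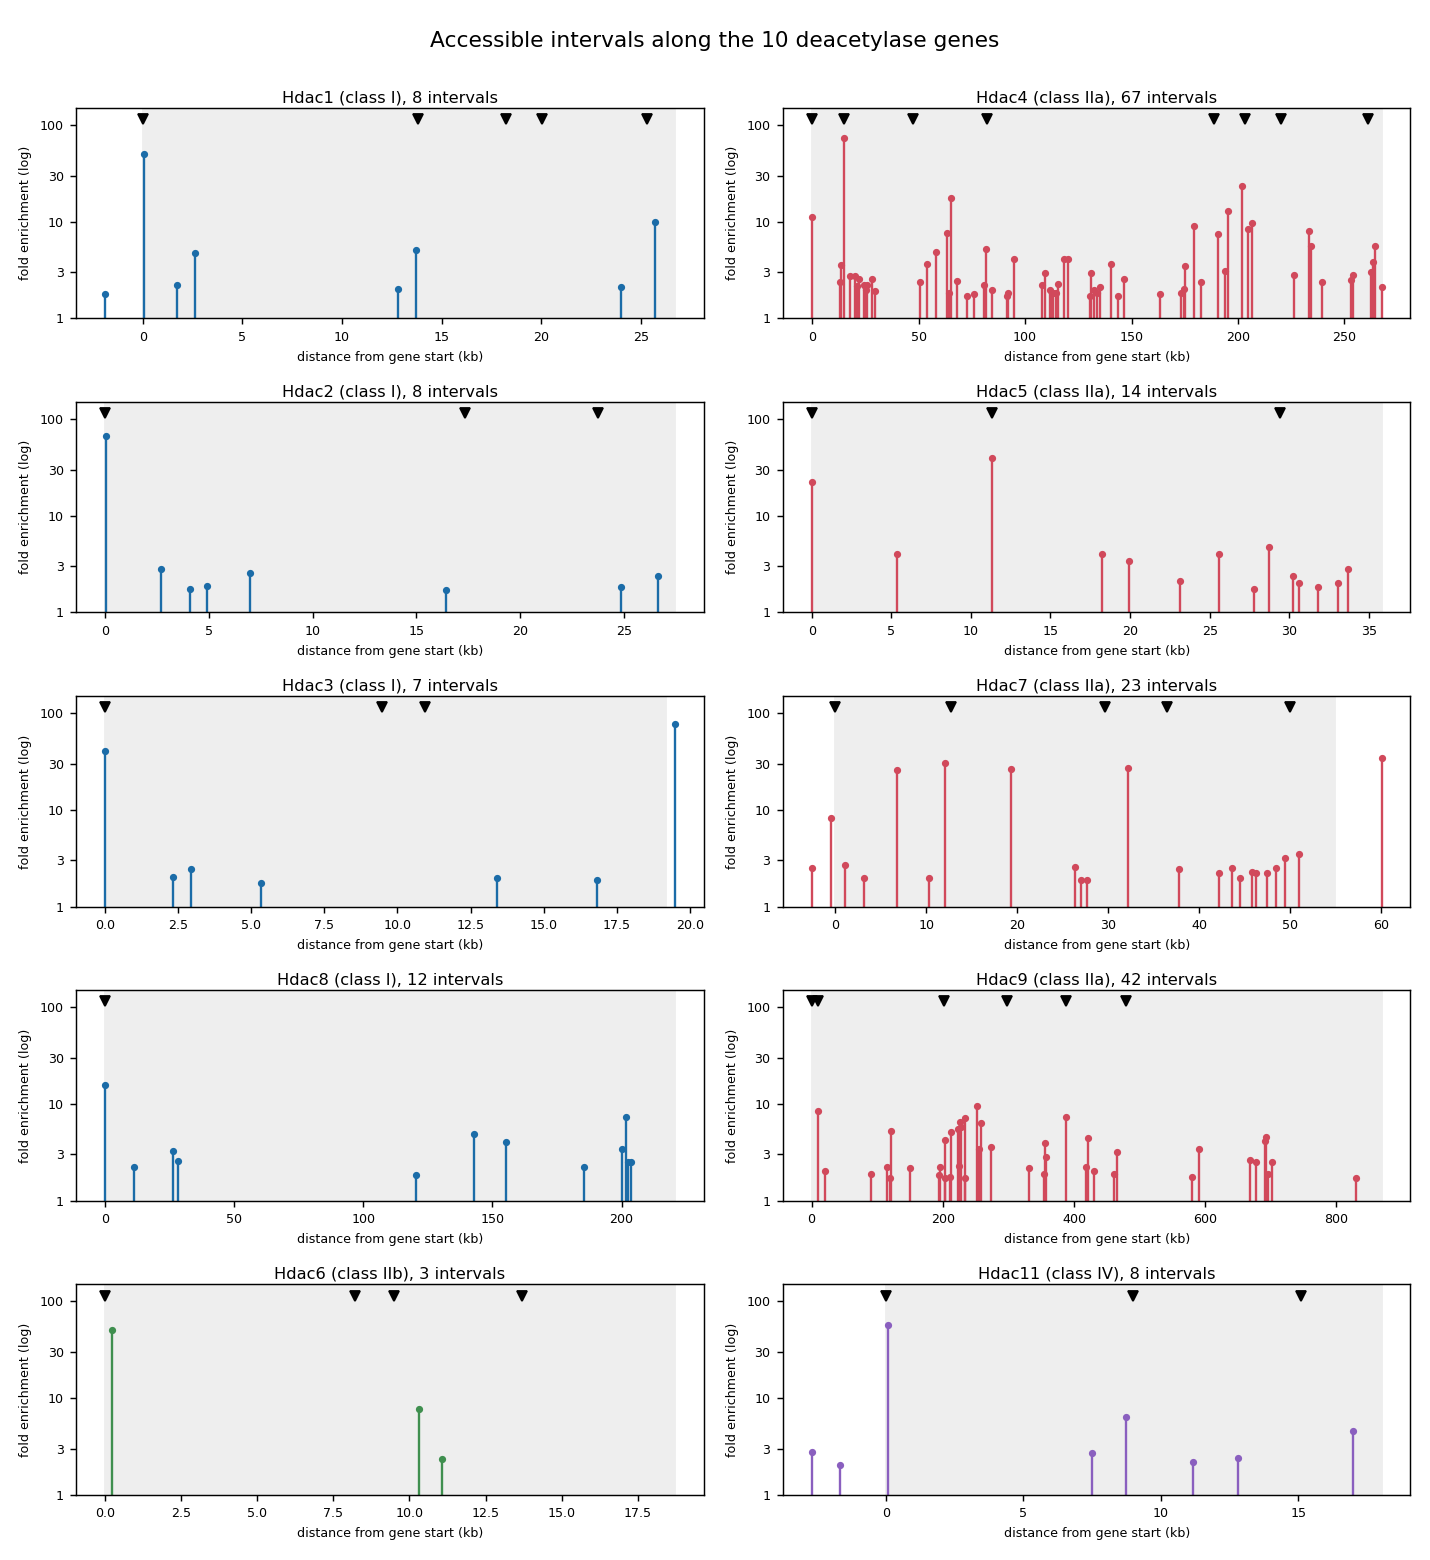
Fold enrichment (log scale) of each interval at its highest summit against distance from the gene start (kb, in the direction of transcription), with the gene shaded and its groups of annotated starts marked by black triangles. Hdac2 has 1 tall line and 7 low ones, Hdac4 has 67 intervals with its tallest at 15.2 kb, and the last lines of Hdac3 and Hdac7 stand past the end of the gene.

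Class IIa genes held 146 of the 192 intervals. They also held 23 of the 25 intervals of at least 5-fold away from starts, all at Hdac4, Hdac7 and Hdac9, and 1 of these lay past the end of Hdac7. The class IIa genes also make up 1227841 of the 1558773 bp of the 10 genes. Of their intervals 126 lay over 1 kb from every start of the gene, against 28 over 294157 bp in class I. Per 100 kb of region the counts away from starts, at any strength, were alike, with 10.2 in class IIa and 9.15 in class I. In 3 of the 10 genes an interval of at least 10-fold had its summit over 1 kb from every start of that gene, against 33.8% of all coding genes. The 3 were Hdac3, Hdac4 and Hdac7, and without intervals at the starts of other genes they were Hdac4 and Hdac7, with 3 such intervals each. Long genes more often hold an interval of at least 10-fold away from their own starts. Of coding genes of at least 200 kb, a length that Hdac4, Hdac8 and Hdac9 reach, 75.3% did.

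Hdac4, the long-studied class IIa member of cartilage, muscle and neurons, lies on the minus strand of chromosome 1 from 91855937 to 92123421. It had 67 intervals, more than 98.6% of coding genes. At 24.8 per 100 kb its density was above that of 84.3% of the 1012 genes of at least 200 kb. The strongest, chr1:92105910-92109312, reached 74.0-fold with a -log10 q of 1660 and covered the canonical start, a group of starts used by 10 annotated transcripts. Near the outermost start, which belongs to 2 noncoding transcripts, chr1:92123491-92123894 had 11.2-fold. This interval begins upstream of that start and does not contain it, and its summit lay 248 bp upstream. The lncRNA Gm70507 starts 322 bp upstream of the outermost Hdac4 start on the other strand, inside this interval. The share of each start in it cannot be told apart.

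Within Hdac4, 11 intervals of at least 5-fold lay away from every start, and 7 of them fell within a stretch of 43.7 kb, from 191 kb to 234 kb downstream of the gene start. The strongest of them lay in intron 7 at 23.2-fold (chr1:91921098-91922632), 1237 bp upstream of the start of a noncoding transcript. Others lay in intron 6 at 13.0-fold (chr1:91927641-91928695) and in intron 8 at 9.62-fold and 8.38-fold. Intron 2 held 30 intervals over 93283 bp, with a median of 2.23-fold and a single one above 10-fold, at 17.4-fold (chr1:92057646-92059016). The number of intervals in an intron therefore did not follow their strength. The 101 bases around the 3 strongest summits are shown, since these are the strongest of Hdac4 over 1 kb from any annotated start. Only the first holds a searched motif that lies within the bases shown, a GC box (capitals).
Hdac4, intron 7, chr1:91921535-91921635, minus strand: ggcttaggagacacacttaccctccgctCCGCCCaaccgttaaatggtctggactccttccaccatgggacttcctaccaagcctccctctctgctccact
Hdac4, intron 2, chr1:92058246-92058346, minus strand: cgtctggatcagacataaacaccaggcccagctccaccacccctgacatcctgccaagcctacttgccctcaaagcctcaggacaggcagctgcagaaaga
Hdac4, intron 6, chr1:91928102-91928202, minus strand: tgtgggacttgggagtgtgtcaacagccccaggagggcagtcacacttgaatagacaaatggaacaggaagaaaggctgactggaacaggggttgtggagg

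Hdac5, a signal-responsive class IIa enzyme best known from heart muscle, lies on the minus strand of chromosome 11 from 102085245 to 102121072. It was the member whose gene start was not its strongest site although most transcripts begin there. The group at the gene start holds 71 annotated transcripts and had 22.2-fold in chr11:102116824-102122062. A group of 3 transcripts that begins 11317 bp downstream, inside intron 2, had 39.6-fold in chr11:102104394-102113535, an interval of 9142 bp with 26 summits. The summit lay 18 bp downstream of that start, and the 30 bases with the MEF2 site printed above end upstream of it. The 14 intervals of Hdac5 covered 68.2% of its region, and the other 12 ran from 1.77-fold to 4.78-fold. The miRNA gene Mir8101 starts 96 bp inside the gene on the same strand, so its start shares the interval at the Hdac5 gene start.

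Of the 31 groups of starts other than the canonical one, over all 10 genes, 16 had a summit within 1 kb and 3 had one of at least 10-fold. Among all protein-coding genes 53.4% of such groups had a summit and 11.8% one of at least 10-fold, so the members did not stand apart. The 3 were the internal start of Hdac5 at 39.6-fold, the outermost start of Hdac4 at 11.2-fold, and a start in intron 1 of Hdac7 at 11.1-fold. The interval by the outermost start of Hdac4 contains the start of Gm70507 and not that of Hdac4.

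Hdac7, a class IIa enzyme known from endothelium and thymocytes, lies on the minus strand of chromosome 15 from 97687372 to 97742383. Its 23 intervals covered 77.2% of the region, more than in 90.6% of coding genes and more than in any other member. Wide intervals of similar strength followed each other over the first part of the gene. They had 25.9-fold (chr15:97732846-97738962), 30.2-fold at the canonical start (chr15:97726052-97731900), 26.7-fold (chr15:97717729-97725674) and 26.9-fold (chr15:97705318-97713956), and were 5849 bp to 8639 bp wide. The last pair had their summits in intron 1, and the 26.9-fold interval also contains further annotated starts of Hdac7, among them the one with 11.1-fold. The 25.9-fold interval lay between the outermost and the canonical start, and contains the start of the lncRNA Gm33636. The summit of the interval at the canonical start was itself 654 bp upstream of the nearest start. The outermost start had 8.31-fold. The strongest interval of the region, at 34.6-fold and 17734 bp wide, reached in from beyond the 3′ end, where its summit lay outside the region of Hdac7. That summit was 17 bp from the nearest transcript start of the haem transporter gene Slc48a1, though 5856 bp from the outermost start of that gene.

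The 101 bases at 3 summits of Hdac7 that lie over 1 kb from every annotated start follow, since their strength is close to that of the canonical start. Capitals mark the overlapping TATA box and MEF2 site in the first, an AP-1 site in the second and a TEAD site (ACATTCC, here on the other strand) in the third.
Hdac7, intron 1, 26.9-fold, chr15:97710153-97710253, minus strand: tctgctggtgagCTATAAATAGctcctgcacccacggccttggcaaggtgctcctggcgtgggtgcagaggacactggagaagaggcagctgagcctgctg
Hdac7, intron 1, 26.7-fold, chr15:97723033-97723133, minus strand: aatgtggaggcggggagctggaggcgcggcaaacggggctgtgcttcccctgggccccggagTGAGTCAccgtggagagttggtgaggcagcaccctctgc
Hdac7, between the starts, 25.9-fold, chr15:97735558-97735658, minus strand: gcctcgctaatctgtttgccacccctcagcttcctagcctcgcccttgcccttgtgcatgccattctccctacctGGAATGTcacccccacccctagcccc

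Hdac9, a class IIa gene that MEF2 is known to activate, is the longest member, on the minus strand of chromosome 12 from 34097579 to 34967094 (870 kb). It had 42 intervals, but only 4.81 per 100 kb, which is more than 29.2% of the genes of at least 200 kb. None of them reached 10-fold. The outermost start, of 1 noncoding transcript, had no interval within 1 kb. The CpG-rich start 10038 bp downstream of it had 8.51-fold (chr12:34956019-34957786), and the group of 31 transcripts at the canonical start had 7.27-fold (chr12:34577878-34579468).

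The strongest interval of Hdac9 lay at neither, but 252 kb downstream of the gene start and 46446 bp from the nearest start, at 9.56-fold (chr12:34714767-34715553). It was 1 of 7 intervals from 5.17-fold to 9.56-fold within 45.5 kb, and these made up 7 of the 8 intervals of at least 5-fold away from the starts of Hdac9. The stretch lies 129 kb to 175 kb upstream of the canonical start, inside the longer transcripts. Intron 17 held 4 intervals of at most 4.58-fold, 678 kb to 696 kb downstream of the gene start. Sequence in that part of Hdac9 is known to hold enhancers of Twist1, a gene of mesenchyme that starts 89.9 kb beyond the end of Hdac9 and had 11.7-fold at its own start. The 101 bases at the 9.56-fold summit hold a CCAAT box, here on the other strand, and an AP-1 site (both in capitals), and are shown as the strongest site of the longest member.
Hdac9, 252 kb downstream of the gene start, chr12:34714912-34715012, minus strand: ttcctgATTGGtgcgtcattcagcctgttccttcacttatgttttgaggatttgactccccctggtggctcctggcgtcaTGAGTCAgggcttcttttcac

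**Figure D4:**
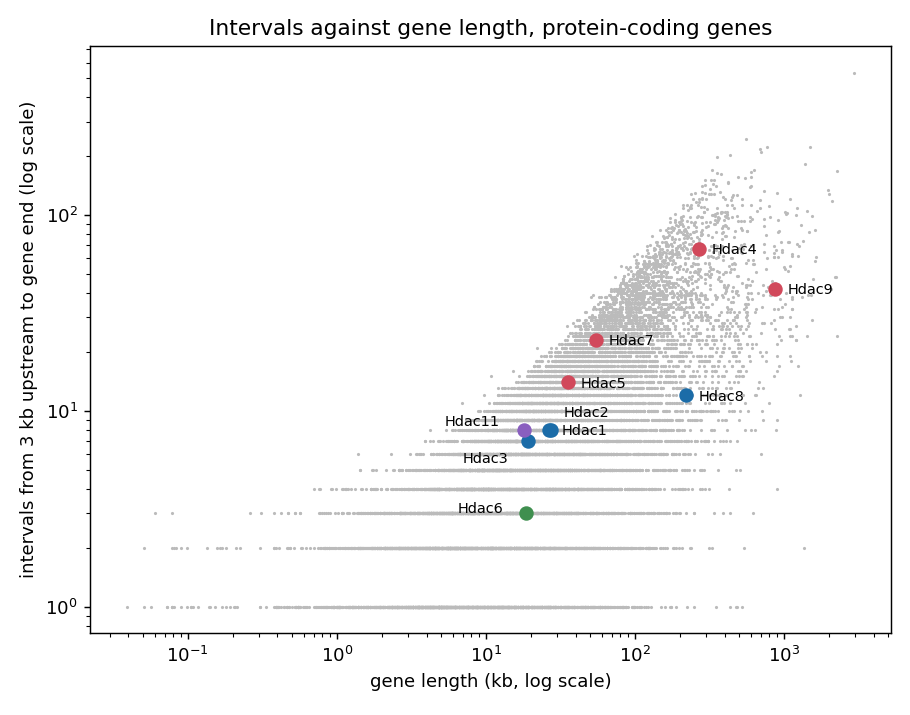
Number of intervals from 3 kb upstream to the gene end (y axis, log scale) against gene length in kb (x axis, log scale) for coding genes with at least 1 interval (grey) and the 10 members (class I blue, IIa red, IIb green, IV purple). Hdac4, with 67 intervals over 267 kb, lies well above Hdac8 (12 over 221 kb), and Hdac9 has 42 over 870 kb.

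Hdac6, the tubulin deacetylase of class IIb, lies on the minus strand of the X chromosome from 7795684 to 7814404. It had 3 intervals, the fewest of any member. The start interval chrX:7810900-7815268 reached 51.1-fold with a -log10 q of 1021, and the lncRNA Gm14820 starts 16 bp upstream of the gene on the other strand. A second interval of 7.73-fold over the coding exon 17 (chrX:7803752-7804364) lay 824 bp from the start of another transcript. The third, in intron 19, had 2.36-fold.

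Hdac11, the class IV gene, spans 91133642 to 91151695 on the plus strand of chromosome 6. Its start interval chr6:91132369-91139782, 7414 bp wide with 19 summits, reached 56.9-fold with a -log10 q of 1178, and the lncRNA Gm67823 starts 60 bp upstream on the other strand. An interval in intron 3 had 6.29-fold near a further start, 259 bp away. The other 6 intervals ran from 2.03-fold to 4.58-fold. Intervals covered 67.8% of the region, close to the 68.2% of Hdac5. Divergent starts on the other strand thus lay within 100 bp of Hdac3, Hdac6 and Hdac11, and their share in each interval cannot be told apart.

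Beyond the strong sites, the intervals of these genes were like those of the genome at large. The median fold enrichment of the 192 was 2.52, against 2.55 over all intervals, and 59.9% were under 3-fold, against 59.0%. Their median width was 475 bp, against 434 bp. By the canonical transcript, 125 of the highest summits lay in introns (65.1%), 9 in coding exons, 11 in noncoding exons and 47 outside it. Those 47 include summits between the outermost and the canonical starts of Hdac4, Hdac7 and Hdac9. G and C content had a median of 58% in the 40 windows within 1 kb of a start of any gene and 50% in the other 152, against 54.5% and 49.5% over all intervals.

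Of the genes of the complexes that carry class I enzymes, all 37 had an interval at the canonical start, against 75.8% of all coding genes, and 32 reached 20-fold, with a median of 40.1-fold. The Sin3 complex, which recruits HDAC1 and HDAC2 to promoters, had 12 of 12 genes at 20-fold or more, from 24.2-fold at Brms1 to 99.8-fold at Ing1, with a median of 60.1-fold. The NuRD complex, which joins deacetylation to nucleosome remodelling, had 8 of 9, from 18.8-fold at Mta3 to 104-fold at Gatad2a. The CoREST complex, which pairs HDAC1 and HDAC2 with a histone demethylase, had 4 of 6, from 14.9-fold at Rcor2 to 69.7-fold at Hmg20b. In the NCoR complex, which activates HDAC3, all 4 genes listed passed 20-fold, from 33.5-fold at Ncor1 to 56.4-fold at Tbl1xr1. At Gps2 (49.0-fold), however, the summit of that interval lay over 1 kb from every start of the gene. The MiDAC and MIER complexes had 4 of 6, from 14.9-fold at Dnttip1 to 40.1-fold at Mier3. The shares at 20-fold stand beside the 49.3% of all coding genes.

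Among 20 genes of the MEF2 factors, 14-3-3 proteins, kinases and other partners of the class IIa enzymes, 18 reached 20-fold at the canonical start, with a median of 42.3-fold. The highest was Ywhaq, a 14-3-3 gene, at 95.1-fold, and the lowest the MEF2 gene Mef2c at 7.01-fold. Of 5 partners and substrates of HDAC6, 4 had an interval there, which is near the 75.8% of all coding genes. The highest was at Vcp, an ATPase of protein degradation, with 71.0-fold. Atat1, the gene of the tubulin acetyltransferase that opposes HDAC6, had none within 1 kb of its canonical start. An interval of 25.5-fold reached within 1 kb of another of its starts, but its summit lay over 1 kb from every start of Atat1. Of 10 histone acetyltransferase genes 9 reached 20-fold, from 19.7-fold at Kat2a to 95.1-fold at Kat6b. Of the 7 sirtuins, deacetylases that use NAD in place of zinc, 5 did, from 16.1-fold at Sirt7 to 54.5-fold at Sirt2. These counts stand beside the 49.3% of all coding genes that reached 20-fold, and the lists are small.

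**Figure D5:**
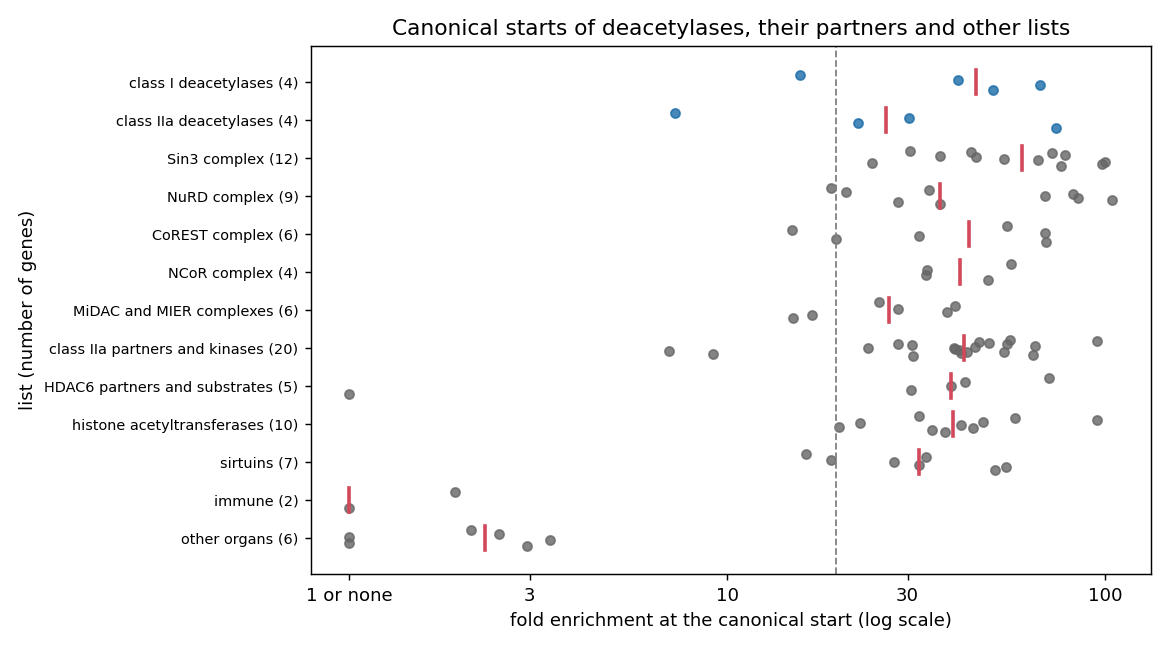
Fold enrichment at the canonical start (x axis, log scale) for the class I and class IIa deacetylase genes (blue), the lists of complexes, partners, acetyltransferases and sirtuins, and markers of immune cells and other organs (grey); each point is a gene, red bars are medians and the dashed line is the median of all coding genes, 19.4-fold. The complex genes lie between 14.9-fold and 104-fold, while the immune and other-organ markers stay at 3.40-fold or lower.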

How the data were processed

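ATAC-seq was done on nuclei of kidney cortex from 3 WT and 3 Acly cKO mice, grouped by their labels. By the study's methods, the authors used fastp for trimming and Bowtie2 2.3.4.3 for alignment to mm39, kept unique, deduplicated reads, called peaks and summits with MACS3 3.0.0, and removed blacklisted regions with bedtools 2.29.1. The sign of the read shift given to MACS3 could not be read, which bears on exact summit positions. The deposited list holds fold enrichment, a linear ratio, and -log10 q of each summit, both written by the authors' caller, together with the score that the authors' caller derives from q and the offset of the summit. The deposited score, p and unfiltered summit columns were not used for results.

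Rows were merged into distinct intervals by position, and each took the values of its summit with the highest -log10 q. GENCODE M39 on GRCm39 gave genes and starts, and starts within 1 kb of each other formed a group. An interval counted as at a start when any part of it lay within 1 kb, so its summit can lie further off. All sequences were read from GRCm39, with coordinates from 1. Motifs were matched on both strands without mismatches. All 10 genes were named, with every interval at a start or of at least 10-fold and the strongest away from starts, and of each other list the highest and lowest gene. The members, lists and motifs were chosen with earlier results of these data known, and 1 gene each of the NCoR and immune lists is not reported here. Canonical starts were used as an alternative chosen after seeing the data, as were the MEF2 windows and the stretches of neighbouring intervals. The scripts (Python 3.11.15, numpy 2.4.6, pandas 2.3.3, pysam 0.24.0) were tested on simulated cases.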

Additional observations from a re-analysis of the deposited data

How the results depend on the processing

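Within the 10 genes, the 192 intervals became 108 at a q under 1e-05, 44 at a fold enrichment of at least 5 and 633 when summits were counted, all by construction. The 161 intervals away from the starts of their gene became 82 at a q under 1e-05 and 25 at 5-fold. Windows with any of the 16 motifs rose from 97 to 146 when whole intervals were searched. The count of genes with an interval at the start, the median there and the remaining alternatives stayed within 1.5 times, including the canonical start, which was chosen after seeing the data. Of 50 counts for single genes under these alternatives, 19 moved by more. No paired analysis was possible because the pooled call holds no value per library, and leaving out single libraries could not be done either. Depth per library is unknown, so intervals near the calling threshold cannot be placed more firmly.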
